A study of Homo sapiens with 9 samples.

Results

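Aldehyde dehydrogenases oxidise aldehydes to carboxylic acids with NAD or NADP as the cofactor. The genes described here are 9 members of that family: ALDH3A1, ALDH3A2, ALDH3B1, ALDH1A1, ALDH1A3, ALDH1B1, ALDH2, ALDH7A1 and ALDH9A1. They were taken by symbol from a table of read counts that lists 28307 genes, all 9 were found there, and all 9 passed the filter on low counts that left 15619 genes for testing. The RNA came from SW620, an established human colon cancer line described in the labels as wild type. Cells of all groups grew as suspension cultures, in low-attachment plates, in a medium with insulin, basic FGF and EGF. One group was left untreated, one received streptomycin (SM) at 120 µM for 48 h and one dihydrostreptomycin (DSM) at 120 µM for 48 h, with 3 libraries in each group. The submitters call 120 µM an EC50 and the libraries biological replicates. A single cell line was used, so the values describe that line only.

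SM is an aminoglycoside antibiotic whose streptose sugar carries a free aldehyde group. In DSM that aldehyde is reduced to an alcohol. The comparison of the 2 compounds at matched dose and time therefore asks whether aldehyde dehydrogenase mRNA differed with the form of the drug that carries an aldehyde. Members of the family differ in where they sit and what they oxidise. ALDH3A1 is a cytosolic enzyme for aromatic and lipid-derived aldehydes, ALDH3A2 a microsomal enzyme for fatty aldehydes, and ALDH3B1 a membrane-bound relative. ALDH1A1 and ALDH1A3 make retinoic acid from retinaldehyde, and ALDH1A1 is widely used as a marker of stem-like cells in colon tumours. ALDH1B1 and ALDH2 are mitochondrial and clear acetaldehyde, ALDH7A1 acts in lysine breakdown, and ALDH9A1 acts in carnitine synthesis.

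Levels are given in CPM, each count divided by the library's total after TMM scaling and set to a common scale. Library totals lay between 39315662 (SM replicate 2) and 65562227 (untreated replicate 1). The labels number the libraries 1 to 3 in each group, and libraries with the same number deviated together, so each comparison is given without and with the replicate number as a block (a term in the model that removes what same-numbered libraries share). A gene is called where the edgeR quasi-likelihood test, adjusted by the Benjamini-Hochberg method over 15619 genes, gave a p under 0.05. Those numbered 1 stood apart for several family members, and the main counts of calls are also given without these 3 libraries.

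ALDH3A1 was the member with the largest rise under SM, and DSM left it near the untreated level. It measured 83.1, 78.7 and 71.4 CPM in untreated replicates 1, 2 and 3. With SM it measured 99.4, 107 and 92.0 CPM, and with DSM 85.4, 78.2 and 76.8 CPM. Every SM library was above every untreated and every DSM library, while the untreated and DSM libraries overlapped. The means were 77.7 ± 5.92 CPM untreated, 99.3 ± 7.31 CPM with SM and 80.1 ± 4.64 CPM with DSM (SD, n = 3). Without the block the log2 fold change of SM against untreated was 0.35 (SE 0.073, 95% interval 0.19 to 0.52), with an unadjusted p of 6.51e-04 and an edgeR adjusted p of 1.00, so it did not pass. With the block the log2 fold change was again 0.35 (SE 0.040, 95% interval 0.27 to 0.44), a 1.28-fold rise seen in 3 of 3 pairs, with an edgeR adjusted p of 6.46e-06. The 3 pairs gave log2 differences of 0.26, 0.44 and 0.37.

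For ALDH3A1 the compounds themselves differed. SM against DSM gave a log2 fold change of 0.31 (SE 0.073, 95% interval 0.15 to 0.47) without the block, with an unadjusted p of 0.00167 and an edgeR adjusted p of 1.00. With the block it gave 0.31 (SE 0.040, 95% interval 0.22 to 0.39), higher in 3 of 3 pairs, with an edgeR adjusted p of 3.48e-05. DSM against untreated gave 0.046 with the block (95% interval -0.038 to 0.13, edgeR adjusted p 0.999), higher in 2 of 3 pairs. With the 3 libraries numbered 1 left out and no block, the edgeR adjusted p of ALDH3A1 was 0.00796 for SM against untreated (log2 fold change 0.40) and 0.0118 for SM against DSM (log2 fold change 0.36). DESeq2 without the block called SM against untreated (adjusted p 0.0272) and not SM against DSM (adjusted p 0.172).

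ALDH3A1 lies on the minus strand of chr17:19737984-19748298 (GRCh38.p14, RefSeq). Of the 50-base stretches of its main transcript, 2.83% also occur in AC005722.3, which GENCODE lists as antisense to it. With the strand setting unknown, reads of the pair cannot be told apart there. ALDH3A2 lies on the plus strand of the same chromosome at chr17:19648136-19677596, and both main transcripts have 10 exons. SLC47A2, an organic cation transporter gene between them, had 0 to 2 counts per library and was not tested. SLC47A1, a second transporter gene of this stretch, had 29 to 55 counts per library and was not called (log2 fold change 0.072 for SM against untreated with the block, edgeR adjusted p 0.925). ULK2, an autophagy kinase gene on the other side of ALDH3A1, had 86 to 124 counts and was not called either (log2 fold change 0.46 for SM against untreated with the block, edgeR adjusted p 0.159).

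**Figure D1:**
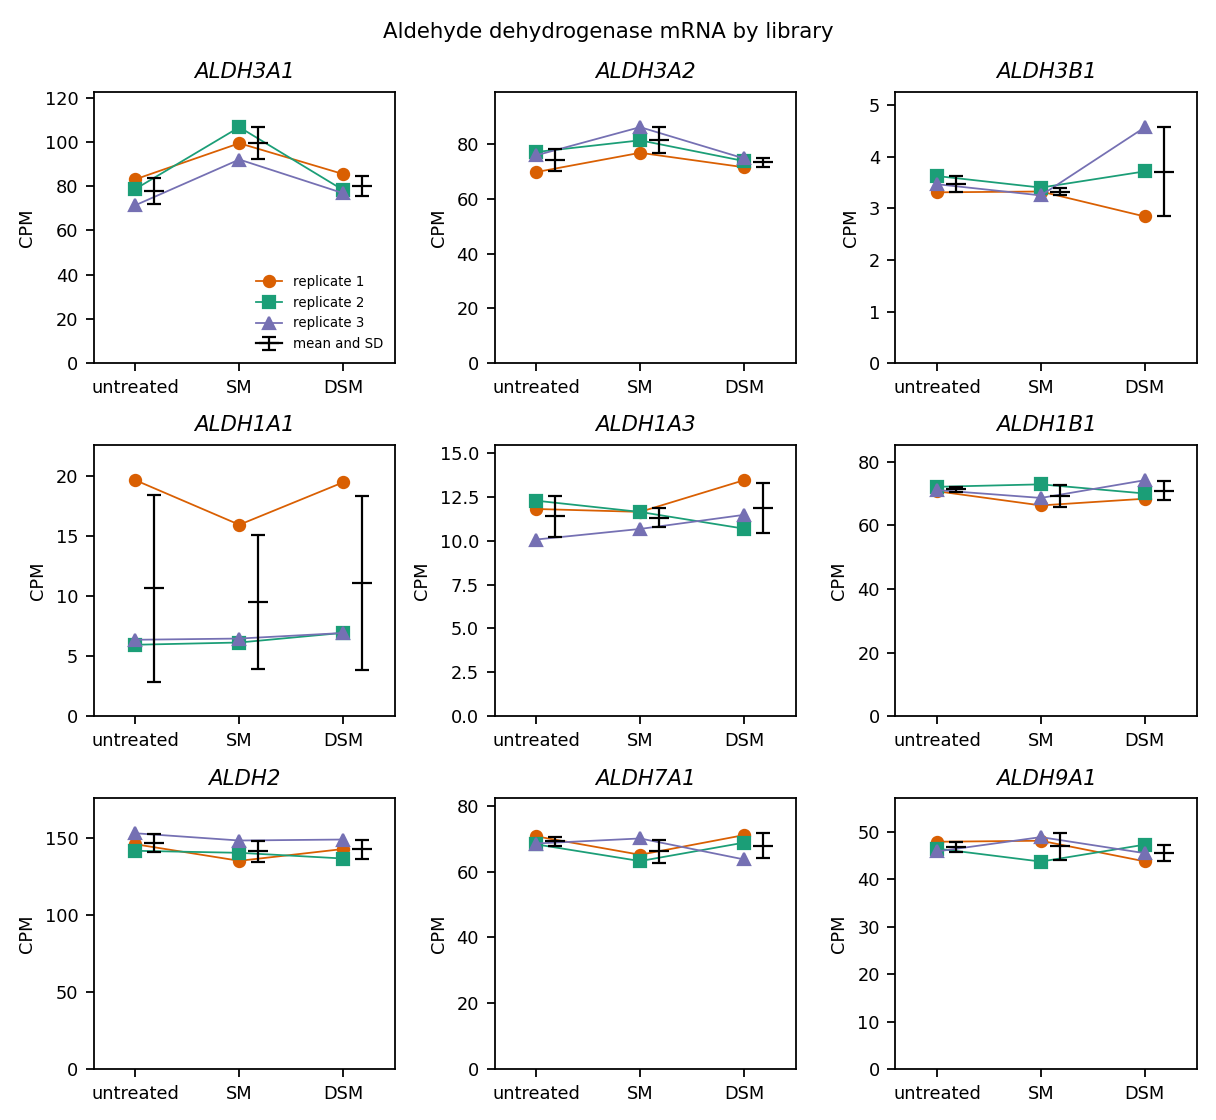
CPM of each of the 9 members (vertical axes, linear, from 0) in the untreated, SM and DSM libraries, with lines joining libraries of the same replicate number and black bars for the mean ± SD of 3 libraries. ALDH3A1 peaks in SM for all 3 numbers, ALDH1A1 is high in the libraries numbered 1 of every group, and ALDH2 and ALDH9A1 stay nearly flat.

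ALDH3A2, whose loss causes Sjögren-Larsson syndrome, showed a smaller difference in the same direction. It measured 69.9, 77.2 and 76.0 CPM untreated, 77.0, 81.5 and 86.3 CPM with SM, and 71.7, 73.9 and 74.9 CPM with DSM. The SM libraries all lay above the DSM libraries, and SM replicate 1 lay within the untreated range. Without the block the edgeR adjusted p was 1.00 for SM against untreated and 1.00 for SM against DSM. With the block ALDH3A2 rose with SM by 0.13 on the log2 scale (SE 0.036, 95% interval 0.059 to 0.21, edgeR adjusted p 0.0445), in 3 of 3 pairs. Against DSM it was 0.15 higher (SE 0.036, 95% interval 0.075 to 0.23, edgeR adjusted p 0.0175), also in 3 of 3 pairs. DSM against untreated gave -0.016 (95% interval -0.091 to 0.058, edgeR adjusted p 0.999).

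The ALDH3A2 call was lost when some single libraries were left out. With the block, its edgeR adjusted p for SM against untreated was 0.319, 0.0989 and 0.323 without untreated replicates 1, 2 and 3, and 0.0554 and 0.210 without SM replicates 1 and 3. For SM against DSM it was 0.126 without SM replicate 3, 0.112 without DSM replicate 2 and 0.126 without DSM replicate 3. ALDH3A1, by contrast, stayed called with the block in all 9 of these repeats in both comparisons, with an edgeR adjusted p of at most 0.00151. Without the 3 libraries numbered 1, the blocked edgeR adjusted p of ALDH3A2 was 0.205 against untreated and 0.0388 against DSM.

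RefSeq promoter windows were matched for 7 of the 9 members, and ALDH3A1 and ALDH2 had none. The 250 bases before the first ALDH3A2 start are shown because ALDH3A2 is the called member with a sequence, and those before the first ALDH3B1 start as the relative of the same subfamily that was not called. They lie at chr17:19647886-19648135 and chr11:68008297-68008546 (GRCh38.p14), both on the plus strand, and are written 5′ to 3′.
ALDH3A2: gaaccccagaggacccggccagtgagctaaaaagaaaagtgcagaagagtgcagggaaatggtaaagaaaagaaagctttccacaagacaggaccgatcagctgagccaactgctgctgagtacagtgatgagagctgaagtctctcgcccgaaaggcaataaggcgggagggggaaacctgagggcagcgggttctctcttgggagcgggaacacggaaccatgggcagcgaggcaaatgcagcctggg
ALDH3B1: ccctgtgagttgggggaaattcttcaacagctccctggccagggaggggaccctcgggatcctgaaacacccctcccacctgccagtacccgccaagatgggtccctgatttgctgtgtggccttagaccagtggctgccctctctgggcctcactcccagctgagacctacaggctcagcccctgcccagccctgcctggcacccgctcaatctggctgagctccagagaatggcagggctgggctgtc
The motifs searched, on both strands of the 9 member windows, were TGACNNNGC (the core of the NRF2 element), GCGTG (the AHR core), CACGTG (an E-box) and CCAAT. Neither printed window held any of them, so no base is in capitals. TGACNNNGC occurred in 0 of the 9 windows and in 10.9% of 35116 promoter windows of the same length. GCGTG occurred in 2 windows, of ALDH1A3 and of the second ALDH3A2 start, against 32.2% of all windows. CACGTG occurred in 1, of the second ALDH3A2 start, against 6.34%, and CCAAT in 5 against 32%. None of these matches overlapped another, and a match says only that the letters are there.

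ALDH3B1, the third subfamily member, was low and not called in any comparison. It measured 3.31, 3.63 and 3.47 CPM untreated, 3.33, 3.404 and 3.25 CPM with SM, and 2.84, 3.72 and 4.57 CPM with DSM. The DSM libraries held both the lowest and the highest value. SM against DSM gave a log2 fold change of -0.15 with the block (95% interval -0.41 to 0.11, edgeR adjusted p 0.627), so a difference of the size seen for ALDH3A1 in the rising direction lay outside that interval.

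The retinaldehyde dehydrogenases did not pass in any comparison. ALDH1A1 differed far more by replicate number than by treatment, with 19.6, 5.94 and 6.35 CPM untreated, 15.9, 6.12 and 6.45 CPM with SM, and 19.4, 6.93 and 6.91 CPM with DSM. The libraries numbered 1 exceeded the mean of the other two by 3.19-fold untreated, 2.53-fold with SM and 2.81-fold with DSM. Of the sum of squares of ALDH1A1 log2 CPM, 97.9% went with the replicate number and 1.17% with the group. Without the block the 95% interval of SM against untreated ran from -1.61 to 1.28, and with it from -0.28 to 0.044 (log2 fold change -0.12, edgeR adjusted p 0.526). SM against DSM was -0.21 with the block (95% interval -0.37 to -0.043), lower in 3 of 3 pairs, with an unadjusted p of 0.0154 and an edgeR adjusted p of 0.172, which did not pass.

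ALDH1A3 measured 11.8, 12.3 and 10.1 CPM untreated, 11.6, 11.6 and 10.7 CPM with SM, and 13.4, 10.7 and 11.5 CPM with DSM. All 3 groups overlapped. SM against untreated gave -0.0076 with the block (95% interval -0.16 to 0.15) and SM against DSM -0.070 (95% interval -0.23 to 0.089). Of its transcript's 50-base stretches, 36.5% also occur in AC015712.2, an antisense gene, or AC015712.5, both of which overlap it, so its count is uncertain without the strand setting. ALDH1A1 shared 0 such stretches.

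The mitochondrial enzymes were abundant and were not called. ALDH2, the main acetaldehyde-clearing enzyme, measured 146, 142 and 153 CPM untreated, 135, 140 and 148 CPM with SM, and 143, 137 and 149 CPM with DSM. It was lower with SM in 3 of 3 pairs by a small amount that did not pass (log2 fold change -0.056 with the block, 95% interval -0.12 to 0.011, edgeR adjusted p 0.442). ALDH1B1 measured 70.7, 72.1 and 71.0 CPM untreated, 66.2, 72.8 and 68.6 CPM with SM, and 68.3, 69.95 and 74.1 CPM with DSM. For SM against DSM with the block, ALDH2 gave -0.016 (95% interval -0.084 to 0.051) and ALDH1B1 -0.035 (95% interval -0.12 to 0.045). Both intervals leave out a rise of the size measured for ALDH3A1. In the ALDH2 transcript 9.79% of the 50-base stretches also occur in other genes, most of them in AC002996.1.

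ALDH7A1 (antiquitin) measured 70.7, 68.3 and 68.5 CPM untreated, 65.1, 63.2 and 70.1 CPM with SM, and 71.1, 68.8 and 63.7 CPM with DSM. ALDH9A1 measured 47.9, 46.4 and 45.8 CPM untreated, 48.1, 43.7 and 48.8 CPM with SM, and 43.7, 47.3 and 45.5 CPM with DSM. In both genes the groups overlapped in every comparison. SM against DSM with the block gave -0.036 for ALDH7A1 (95% interval -0.13 to 0.055) and 0.046 for ALDH9A1 (95% interval -0.050 to 0.14). Of ALDH7A1's 50-base stretches, 7.12% also occur in its pseudogene ALDH7A1P1.

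**Figure D2:**
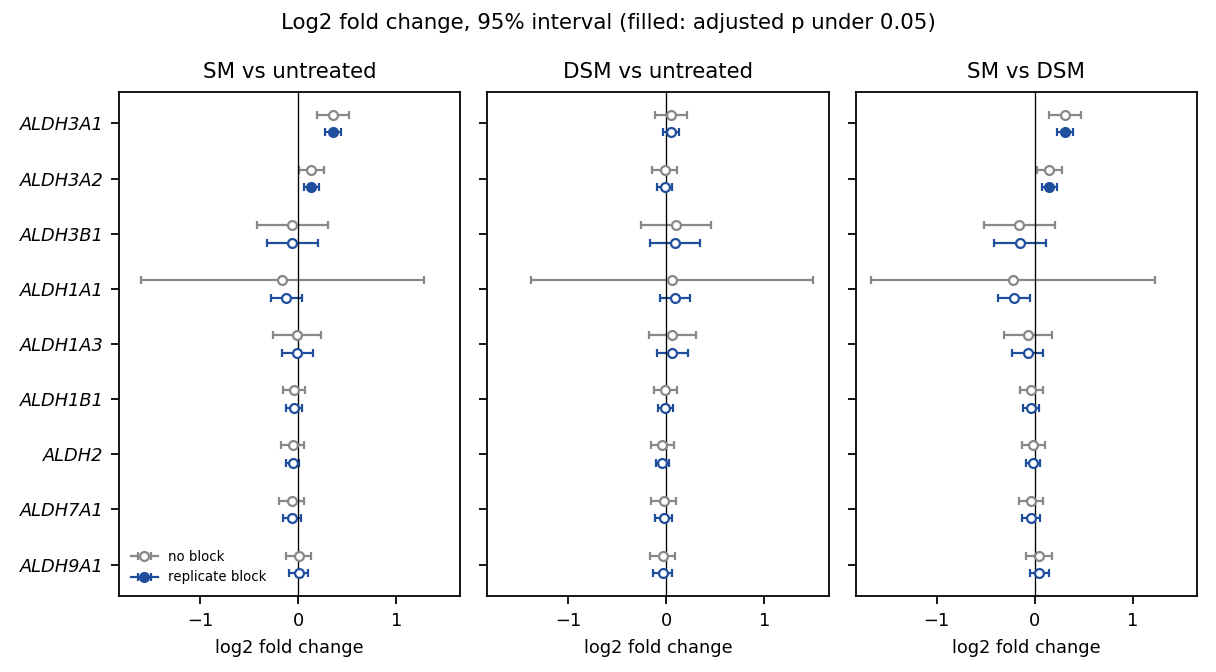
Log2 fold changes of the 9 members (horizontal axes) in the 3 comparisons, with 95% intervals, from the edgeR fit without a block (grey) and with the replicate block (blue); filled points have an adjusted p under 0.05. ALDH3A1 and ALDH3A2 are filled in the blocked fit of SM against untreated and of SM against DSM, no point is filled for DSM against untreated, and the interval of ALDH1A1 narrows most with the block.

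Counted over the family, 0 of the 9 members were called for SM against untreated without the block, where 3 genes of all tested were called (0.0192%). At an unadjusted p under 0.05 there were 2 of the 9, against 2.34% of all genes. With the block 2 of the 9 were higher and 0 lower, where 2.74% of all tested genes were called, 1.2% higher and 1.54% lower. For SM against DSM 0 of 9 were called without the block, as for all genes by edgeR (0%), with 2 of the 9 and 396 of all genes (2.54%) at an unadjusted p under 0.05, 11 genes called by DESeq2 and 0 by limma voom. With the block 2 of 9 were higher than with DSM and 0 lower, where 3.88% of all genes were called, 1.73% higher and 2.15% lower. For DSM against untreated 0 of 9 were called in either fit, as for all genes by edgeR (0%), and without the block 0 by DESeq2 and 0 by limma voom. In that comparison 103 genes (0.659%) without and 650 genes (4.16%) with the block had an unadjusted p under 0.05, and 0 of these were members. The 9 members were chosen with earlier results of these data known, so their counts are no independent evidence.

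The libraries of the groups did not overlap for 1 of 9 members in SM against untreated (6.74% of all genes), 2 in SM against DSM (6.56%) and 0 in DSM against untreated (4.42%). The median log2 fold change of the 9 members with the block was -0.044 in SM against untreated, -0.035 in SM against DSM and -0.0095 in DSM against untreated. Over all tested genes these medians were -0.00091, -1.4e-05 and -0.00044. The comparisons share libraries: both drugs were set against the same untreated ones, and the SM libraries enter 2 of the 3 comparisons.

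Levels of different genes were compared per kilobase, by the length of the main transcript's coding part and by that of the whole transcript, and the order turned on which was used. Reads fall on whole transcripts, and the ALDH2 transcript is 9569 bases long with 1551 coding, against 1925 with 1359 coding for ALDH3A1. Per kilobase of coding length, ALDH2 was first in untreated cells with 94.7 ± 3.71 CPM per kilobase (SD, n = 3), followed by ALDH3A1 (57.2 ± 4.36), ALDH3A2 (51.1 ± 2.71), ALDH1B1 (45.9 ± 0.465), ALDH7A1 (42.8 ± 0.829) and ALDH9A1 (30.1 ± 0.672). Per kilobase of transcript, ALDH3A1 was first with 40.4 ± 3.08, followed by ALDH1B1 (23.2 ± 0.235), ALDH3A2 (18.9 ± 1.00), ALDH9A1 (17.3 ± 0.387), ALDH2 (15.4 ± 0.601) and ALDH7A1 (13.9 ± 0.270). By either length ALDH1A1, ALDH1A3 and ALDH3B1 were the lowest, at 7.07 ± 5.18, 7.41 ± 0.758 and 2.47 ± 0.112 CPM per kilobase of coding length. In untreated cells the ranges of ALDH1A1 and ALDH1A3 overlapped by either length, and those of ALDH3A1 and ALDH3A2 by coding length, while other neighbours in the order did not overlap. With SM, ALDH3A1 was at 73.1 ± 5.38 CPM per kilobase of coding length and 51.6 ± 3.80 per kilobase of transcript. By each length the order of the means was the same in all 3 groups. Summed CPM of the 9 members lay between 496 and 535 per library, and ALDH3A1 supplied 14.1% to 15.9% of that sum in untreated, 17.2% to 20.1% in SM and 15.1% to 16.47% in DSM libraries.

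The replicate number and the group took different shares of each gene's variation. For ALDH3A1 78.5% of the sum of squares of log2 CPM went with the group and 15.3% with the replicate number, and for ALDH3A2 the shares were 59.1% and 33.1%. For ALDH2 the replicate number took 67.7%. For ALDH7A1 and ALDH9A1 most was left to neither (69.6% and 82.4%). The medians over all tested genes were 52.2% for the replicate number and 14.2% for the group.

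**Figure D3:**
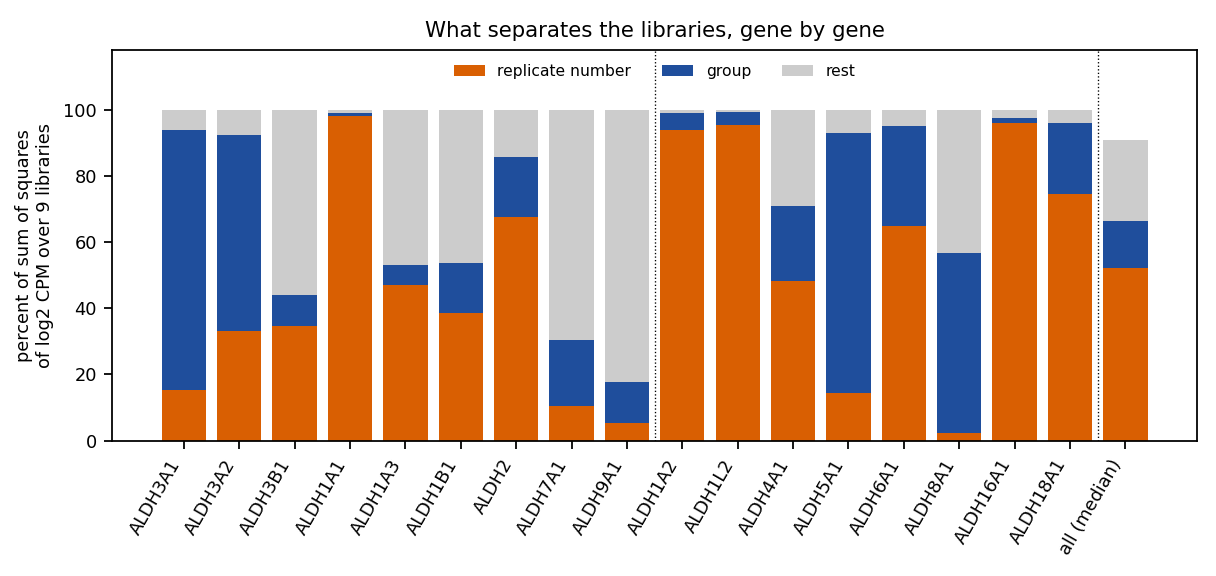
Percent of the sum of squares of log2 CPM over 9 libraries (vertical axis) taken by the replicate number (orange), the group (blue) and the rest (grey) for the 9 members, the 8 other tested ALDH genes and, as 3 separate medians that need not add to 100, all tested genes. The group bar is largest for ALDH3A1 and ALDH5A1 (78.5% each). The replicate number takes 97.9% of ALDH1A1, 93.8% of ALDH1A2, 95.3% of ALDH1L2 and 96.1% of ALDH16A1. It also takes more than the all-gene median (52.2%) of ALDH18A1 (74.6%), ALDH2 (67.7%) and ALDH6A1 (65.0%).

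Likeness of pattern was measured as Pearson's r of log2 CPM over the 9 libraries, after subtracting the mean of same-numbered libraries, among 10293 genes of at least 5 CPM. The 5 genes most like ALDH3A1 were AKR1C3 (r = 0.99), NQO1, SQSTM1, MYO1A and WDR45 (r of 0.99 each). Without that subtraction r with ALDH3A1 was 0.95, 0.82, 0.96, -0.058 and 0.59 in the same order. AKR1C3 and NQO1 are reductases and SQSTM1 an autophagy receptor, all known NRF2 targets, MYO1A is a brush border myosin and WDR45 an autophagy protein. The 5 most like ALDH3A2 were DTX3L (r = 0.99), CHAC1 (0.99), SNAPC1 (0.99), UTP25 (0.98) and XPOT (0.98). Their r with ALDH3A2 without the subtraction lay between 0.69 (SNAPC1) and 0.98 (DTX3L). DTX3L is a ubiquitin ligase, CHAC1 degrades glutathione and XPOT exports tRNA from the nucleus. Of these 10 genes, AKR1C3, NQO1, SQSTM1, WDR45 and XPOT were called higher with SM against untreated with the block, and MYO1A, DTX3L, CHAC1, SNAPC1 and UTP25 were not. Against DSM AKR1C3, NQO1, SQSTM1, CHAC1 and XPOT were called higher. The shares of all tested genes called higher were 1.2% and 1.73%. The 10 genes were picked for likeness to ALDH3A1 or ALDH3A2, which were called themselves, so their calls are no independent evidence. ALDH3A2 itself had r = 0.88 with ALDH3A1, and the other 7 members had r between -0.49 and 0.0089. Without the subtraction these were 0.48 for ALDH3A2 and between -0.51 and 0.26 for the other 7. These r values are over libraries that share the 3 treatment groups and were picked as the highest, so they describe these libraries only.

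Of 10 other ALDH genes, 8 passed the filter on low counts, and 2, ALDH1L1 and ALDH3B2, did not. With the block 1 of the 8 was higher and 0 lower for SM against untreated, 2 were higher and 0 lower for SM against DSM, and 0 were called for DSM against untreated or in any comparison without the block. Among all tested genes, 1.2% were called higher against untreated and 1.73% against DSM with the block. ALDH1L2, the mitochondrial 10-formyltetrahydrofolate dehydrogenase, measured 1.38, 5.71 and 6.64 CPM untreated, 1.88, 7.49 and 8.43 CPM with SM, and 1.42, 6.07 and 5.34 CPM with DSM. It was low in every library numbered 1, and higher with SM than its same-numbered partners in 3 of 3 pairs. With the block it rose by 0.38 on the log2 scale against untreated (SE 0.10, edgeR adjusted p 0.0445) and was 0.47 higher than with DSM (SE 0.11, edgeR adjusted p 0.00985). Without the 3 libraries numbered 1 it was called against DSM only.

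ALDH5A1, the succinic semialdehyde dehydrogenase, measured 17.0, 17.7 and 18.5 CPM untreated, 17.6, 19.2 and 18.1 CPM with SM, and 15.5, 16.1 and 16.1 CPM with DSM. The DSM libraries lay below all others. SM against DSM gave 0.20 with the block (95% interval 0.082 to 0.32, edgeR adjusted p 0.0489), a call lost without the 3 libraries numbered 1. DSM against untreated gave -0.16 (95% interval -0.27 to -0.042, unadjusted p 0.00959, edgeR adjusted p 0.999). ALDH1A2 (retinaldehyde), ALDH4A1 (proline breakdown), ALDH6A1 (valine breakdown), ALDH8A1, ALDH16A1 and ALDH18A1 (proline synthesis) were not called. ALDH18A1 was the most abundant of these, with 148 to 164 CPM untreated, 150 to 173 CPM with SM and 143 to 163 CPM with DSM.

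Aldehydes are also cleared by reductases and oxidases outside the family. Of 20 such genes, 15 were tested. With the block 5 were higher and 0 lower for SM against untreated (AKR1C1, AKR1C2, AKR1C3, AKR1B10 and CBR1). For SM against DSM 4 were higher and 0 lower (the AKR1C genes and AKR1B10), and 0 were called for DSM against untreated. Over all tested genes 1.2% were called higher with SM against untreated and 1.73% against DSM. This list too was chosen with earlier results of these data known, so its count is no independent evidence. AKR1C1, an aldo-keto reductase, measured 31.9, 51.1 and 43.6 CPM untreated, 61.9, 111 and 92.7 CPM with SM, and 32.7, 48.1 and 46.6 CPM with DSM, a blocked log2 fold change of 1.06 (SE 0.045, edgeR adjusted p 2.45e-13) against untreated. AKR1B10, which reduces retinaldehyde and other aldehydes, was at 2.85 to 4.12 CPM with SM and rose by 1.33 on the log2 scale with the block (SE 0.21, edgeR adjusted p 0.0013). AKR1C1, AKR1C2 and AKR1C3 are related genes among which the counting could split reads, and the stretches they share were not searched. Over the 15 tested genes the median blocked fold change, on the log2 scale, was 0.072 against untreated and 0.096 against DSM. With the 3 libraries numbered 1 left out, the same 5 were called against untreated, and AKR1A1 and CBR1 joined the 4 called against DSM.

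NRF2, the factor that drives the response to electrophiles, and AHR, the receptor for aromatic hydrocarbons, are both known regulators of ALDH3A1. Whether either had a part in the ALDH3A1 values here was not tested. Of 19 other NRF2 targets tested, 15 were higher and 0 lower with the block for SM against untreated (median log2 fold change 0.20) and 15 higher and 0 lower for SM against DSM (median 0.21). The shares of all tested genes called higher were 1.2% and 1.73%, with medians of -0.00091 and -1.4e-05. For DSM against untreated 0 were called (median -0.0024). NQO1, a quinone reductase, rose by 0.34 on the log2 scale, HMOX1, a haem oxygenase, by 0.80 and TXNRD1, a thioredoxin reductase, by 0.38 against untreated (edgeR adjusted p 7.33e-06, 8.93e-07 and 2.79e-07 with the block). Without the block 0 of the 19 were called against untreated (0.0192% of all tested genes), and 14 had an unadjusted p under 0.05 (2.34% of all tested genes). With the block and without the 3 libraries numbered 1, 13 were called for SM against untreated and 12 for SM against DSM. This list was chosen knowing that NRF2 targets had risen in these samples, so its count is no independent evidence.

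Of 7 genes for AHR and its targets, 5 were tested and 0 were called in any comparison with all 9 libraries. At an unadjusted p under 0.05 there was 1 for SM against DSM with the block, and 2535 of all 15619 tested genes. TIPARP measured 101 to 117 CPM untreated, 105 to 122 CPM with SM and 107 to 118 CPM with DSM, and AHR itself 42.6 to 50.01, 44.0 to 51.3 and 39.7 to 50.5 CPM. With the block and without the 3 libraries numbered 1, CYP1A1, the classic AHR target, was called lower with SM against both untreated and DSM. It measured 5.16, 2.99 and 2.77 CPM untreated, 5.45, 1.55 and 2.11 CPM with SM, and 5.04, 2.86 and 4.14 CPM with DSM, so SM replicate 1 was the highest of all 9 libraries. With all 9 libraries and the block its log2 fold change was -0.30 against untreated (edgeR adjusted p 0.495) and -0.46 against DSM (edgeR adjusted p 0.214).

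Of 15 retinoic acid targets and retinoid enzymes, downstream of or beside ALDH1A1 and ALDH1A3, 12 were tested. With the block 0 were called for SM against untreated or DSM against untreated, and 2 of the 12 were lower for SM against DSM (2.15% of all tested genes). The 2 were STRA6, the retinol carrier receptor, which fell by 0.33 on the log2 scale (SE 0.057, edgeR adjusted p 0.00118), and RDH11, a retinal reductase (log2 fold change -0.14, SE 0.040, edgeR adjusted p 0.0479), each lower in 3 of 3 pairs. RDH11 measured 91.5, 79.8 and 83.6 CPM with SM and 94.3, 94.0 and 93.0 CPM with DSM. With the 3 libraries numbered 1 left out, STRA6 was also called lower against untreated, and both genes stayed called against DSM.

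**Figure D4:**
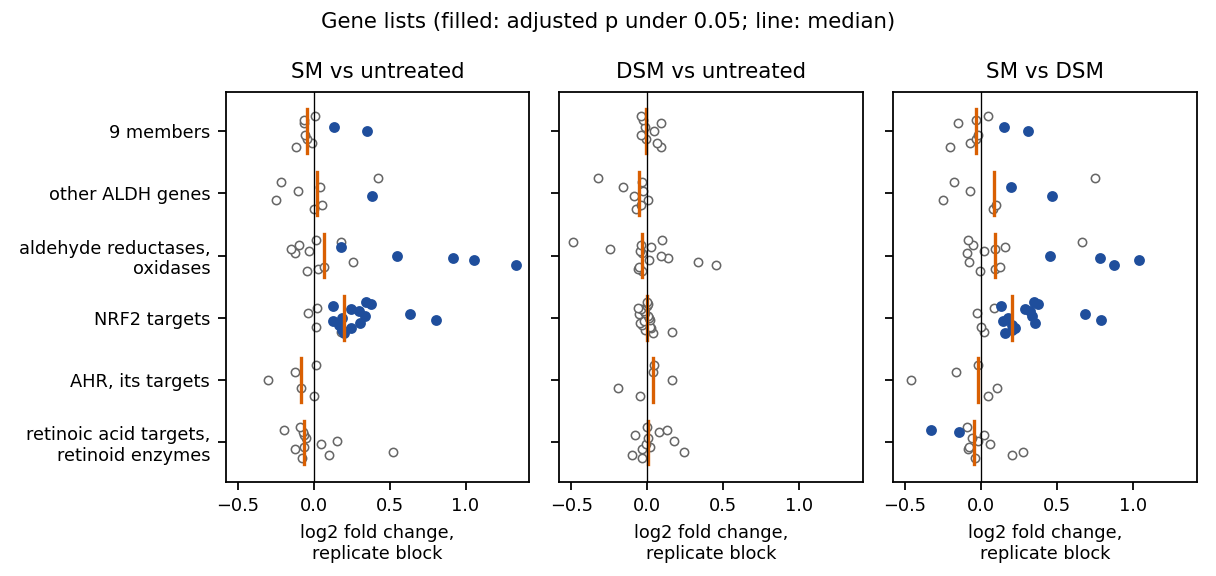
Log2 fold changes with the replicate block (horizontal axes) of the tested genes of 6 lists in the 3 comparisons; each point is a gene, filled where the adjusted p was under 0.05, and orange lines are list medians. In SM against untreated and SM against DSM the NRF2 targets lie mostly above 0 (medians 0.20 and 0.21) and the 9 members centre near 0 with 2 filled points, and no point is filled for DSM against untreated.

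Markers were checked against the label. The 10 colon epithelium markers summed to 10514 to 12953 CPM untreated, 10156 to 11869 CPM with SM and 10359 to 12712 CPM with DSM, carried by KRT8, KRT18, VIL1 and EPCAM, while KRT20 and LGALS4 were under 1 CPM and CDX1 had at most 1 count. With the block 1 of 9 tested was lower with SM against untreated (VIL1, log2 fold change -0.14) and 2 against DSM (VIL1 and CDH1), against 1.54% and 2.15% of all tested genes. All 9 had a log2 fold change below 0 against untreated (median -0.11). Against DSM 7 were below 0 and 2 above (median -0.070). Of all 15619 tested genes, 7896 were below 0 against untreated and 7811 against DSM. Fibroblast markers summed to 16.02 to 27.2 CPM untreated, 12.8 to 25.3 CPM with SM and 16.6 to 26.2 CPM with DSM. COL1A1 (7.01 to 13.3 CPM over all libraries) and LUM (4.98 to 13.7 CPM) carried most of this, and COL3A1 and DCN were at 0. LUM was lower with SM (log2 fold change -0.41, edgeR adjusted p 0.0271 with the block). Leukocyte markers summed to 21.0 to 28.9 CPM over all libraries, carried by CD68 (12.4 to 22.1 CPM) and LYZ (4.68 to 8.76 CPM), with PTPRC and CD3E near 0. Endothelial markers summed to 1.84 to 4.42 CPM, mostly VWF (1.29 to 3.01 CPM), with CDH5 and KDR near 0. Of the leukocyte and endothelial markers 0 were called. Without the 3 libraries numbered 1, CDH1 in place of VIL1 was lower against untreated, CEACAM5 joined VIL1 and CDH1 against DSM, and COL1A1 joined LUM against DSM. Whether these markers had a part in the ALDH3A1 or ALDH3A2 values was not tested, and in bulk RNA fewer cells with a transcript and less of it per cell cannot be told apart.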

How the data were processed

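Poly(A) RNA of 9 SW620 cultures was sequenced. Per the labels' protocols, TRIzol was used for extraction and a NuGEN kit (Universal Plus mRNA-seq) for the libraries. In the submitters' processing notes are TopHat2 (2.1.1), featureCounts (2.0.0), cutadapt (3.4), bcl2fastq (2.20.0.422), DESeq2 (1.26.0), MultiQC (1.10.1), FastQC (0.11.9) and the build hg38. A strand setting was not given in the sources used here, nor a rule for ambiguous reads, nor an annotation. The deposited values used were raw whole-number counts per gene, which the authors did not normalize. Their normalized table was not used.

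Counts were fitted in R 4.3.3 with edgeR 4.0.16 (filterByExpr by group with a minimum count of 10 and minimum total of 15, TMM factors 0.981 to 1.02, robust quasi-likelihood fit of all 9 libraries with group as its only term, two-sided F tests, Benjamini-Hochberg adjustment over 15619 genes at 0.05). SE is the log2 fold change divided by the root of F. Log2 CPM used a prior count of 2. The scripts were tested on simulated counts. The labels' replicate numbers pair the libraries: after each group's mean was taken off, the 9 correlations within a number were 0.227 to 0.582, against -0.404 to 0.161 for 18 between numbers of different groups. The block was therefore fitted beside each result.

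The members and lists were chosen with earlier results of these data known. All 9 members and the tested ALDH genes are described, and of each other list examples with the smallest p, or the 2 most abundant if no gene passed, are named. CYP1A1, with the marker genes, was named after its values were seen. Coding and transcript lengths come from GENCODE v29 principal transcripts in place of RefSeq proteins, and coordinates and promoters from RefSeq GRCh38.p14. Shared stretches were searched in GENCODE v29 transcripts. Alternatives were other scalings, filters, DESeq2 1.42.0 and limma 3.58.1 (voom), a fit of only 2 groups, no robust estimation, the block, and leaving out each library. Leaving out the 3 libraries numbered 1, blocked forms of the scaling, filter, 2-group and non-robust fits, and levels per transcript length, were chosen after seeing the data.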

Additional observations from a re-analysis of the deposited data

How the results depend on the processing

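With the replicate block, ALDH3A1 was called in 18 of 18 alternatives for SM against untreated (log2 fold change 0.30 to 0.40, highest adjusted p 0.00119) and in 18 of 18 for SM against DSM (0.25 to 0.35, highest adjusted p 0.00151). ALDH3A2 was called in 10 of 18 (0.11 to 0.16, adjusted p 0.0295 to 0.323) and 14 of 18 (0.12 to 0.17, adjusted p 0.00907 to 0.126). Without the block ALDH3A1 was called in 2 of 18 alternatives against untreated (DESeq2, and the libraries numbered 1 left out) and 1 of 18 against DSM (the libraries numbered 1 left out). The replicate block changed no call of the other 7 members. Depth limits ALDH8A1 (0.0949 to 0.33 CPM; 95% interval of SM against DSM with the block -0.18 to 1.69), and 3 libraries a group limit all values.

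Genes called without the block numbered 3 for SM against untreated and 0 for SM against DSM. These became 5 and 3 with no filter on low counts, 14 and 11 with DESeq2, 428 and 606 with the replicate block, 385 and 510 with the block in DESeq2, 437 and 610 with the block in voom, and 73 and 186 without the 3 libraries numbered 1. A fit of only the 2 groups called 0 against untreated, and leaving out 1 library called 0 to 3. Members called went from 0 to 1 with DESeq2 (SM against untreated), to 2 with the block in both comparisons, to 1 and 2 with the block in DESeq2, to 2 and 2 with the block in voom, and to 1 and 1 without the 3 libraries numbered 1.

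In the blocked fit, no filter gave 701 genes for SM against untreated and 7 for DSM against untreated, a fit of 2 groups 4 for DSM against untreated and 394 for SM against DSM, and leaving out the libraries numbered 1 gave 1 for DSM against untreated. Leaving out 1 library gave 149 to 569 and 265 to 846. The count was over 1.5 times lower than with all libraries without untreated replicates 1 (187), 2 (169) and 3 (149) and SM replicate 3 (268) against untreated, and without SM replicate 3 (326) and DSM replicates 2 (286) and 3 (265) against DSM. The 2 members became 1 with DESeq2, without robust estimation and without the libraries numbered 1 (SM against untreated), 1 with a fit of 2 groups (SM against DSM), and 1 to 2 with 1 library left out in both. The cause was not tested.

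Of 675 recomputed member fold changes, 38 changed sign, over 18 of 33 results, and 0 of them passed the test. Without the libraries numbered 1 these were ALDH1A1 for SM against untreated (0.037), ALDH1A3 (-0.0097), ALDH1B1 (0.011) and ALDH9A1 (0.0080) for DSM against untreated, and ALDH1A3 (0.0070), ALDH2 (0.016) and ALDH7A1 (0.011) for SM against DSM. With 1 library left out, SM against untreated ran from -0.76 to 0.63 for ALDH1A1, -0.089 to 0.049 for ALDH1A3 and -0.025 to 0.053 for ALDH9A1. DSM against untreated ran from -0.012 to 0.094 for ALDH3A1, -0.62 to 0.85 for ALDH1A1, -0.037 to 0.13 for ALDH1A3, -0.043 to 0.018 for ALDH1B1, -0.061 to 0.011 for ALDH3A2 (-0.040 to 0.010 with the block), -0.061 to 0.016 for ALDH7A1 and -0.081 to 0.26 for ALDH3B1. SM against DSM ran from -0.82 to 0.46 for ALDH1A1, -0.14 to 0.029 for ALDH1A3, -0.072 to 0.0013 for ALDH1B1, -0.053 to 0.016 for ALDH2 and -0.32 to 0.021 for ALDH3B1.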
